A study of Mus musculus with 10 samples.

Results

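Expression of 9 genes of cyclic nucleotide signalling was compared between cells sorted as astrocytes from the cortex of Fmr1 KO mice and of wild-type controls. The genes were Adcy2 and Adcy8, Gucy1a2, Pde2a and Pde10a, Prkar2b and Prkg1, Akap6 and Cnbd2. Each was read from the probe sets whose platform annotation names that gene alone, and the brightest probe set over all 10 arrays was used. They are 9 of the 22180 genes that the arrays pair with a single symbol. The genes were chosen by their role in the pathway and with the log2 differences of this same comparison known, so their differences between the groups are described here and not tested. A log2 level is the deposited signal, and a difference is the mean level on the KO-labelled arrays minus that on controls, with the standard error of limma, a linear model fitted to all genes.

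Per the labels, 5 arrays hold cells of genotype FMR1_KO and 5 hold wild-type cells, all from mice aged 8 weeks, isolated by FACS through an EGFP reporter expressed in astrocytes. The labels do not give the promoter that drives the reporter, the strain, the sex or whether animals were pooled. Fmr1 encodes FMRP, an RNA-binding protein whose loss causes fragile X syndrome. The replicates are called biological, and since separate animals are not stated, a p-value covers only the spread among these samples, which may be technical.

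Cyclic AMP and cyclic GMP are second messengers. Adenylyl cyclases make cyclic AMP under the control of G proteins, and guanylyl cyclases make cyclic GMP in response to nitric oxide or natriuretic peptides. Phosphodiesterases break both down. Their main receivers are protein kinase A (PKA), which anchoring proteins hold at particular places in the cell, and protein kinase G, and cyclic AMP acts on transcription through CREB. In astrocytes, cyclic AMP controls glycogen breakdown and cell shape. Altered cyclic AMP levels have been reported in fragile X syndrome, and the mRNA of Pde2a is a reported FMRP ligand.

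Promoter sequences are shown for the 3 genes that read above the control mean on all 5 arrays labelled Fmr1 KO, and for Pde2a, which read below it on all 5. Cnbd2 also read below it on all 5 and is not shown, since no window was listed for it. Each window runs from 250 bases before to 50 bases after an annotated start, 5′ to 3′ on the gene's own strand, from RefSeq on GRCm38.p6. Capitals mark the core of the cyclic AMP response element, TGACG on either strand, the DNA letters that CREB family proteins bind. The Akap6 window is chr12:52699133-52699432 on the plus strand, the Adcy2 window chr13:68999492-68999791 on the minus strand, the Gucy1a2 window chr9:3532099-3532398 on the plus strand, and the Pde2a window, 1 of 5 for that gene, chr7:101450270-101450569 on the plus strand.
Akap6: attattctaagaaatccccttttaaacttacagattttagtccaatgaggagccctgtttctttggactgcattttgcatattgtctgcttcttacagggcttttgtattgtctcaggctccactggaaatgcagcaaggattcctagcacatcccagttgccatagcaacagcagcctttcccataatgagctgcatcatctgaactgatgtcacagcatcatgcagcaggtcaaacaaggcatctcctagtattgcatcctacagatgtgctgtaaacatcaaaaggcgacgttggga
Adcy2: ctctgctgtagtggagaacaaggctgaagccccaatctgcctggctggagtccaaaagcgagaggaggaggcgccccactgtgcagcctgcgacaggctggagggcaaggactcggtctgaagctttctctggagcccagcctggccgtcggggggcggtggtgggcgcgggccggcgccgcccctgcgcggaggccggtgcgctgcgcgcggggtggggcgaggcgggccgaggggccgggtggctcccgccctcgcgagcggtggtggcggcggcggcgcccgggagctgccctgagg
Gucy1a2: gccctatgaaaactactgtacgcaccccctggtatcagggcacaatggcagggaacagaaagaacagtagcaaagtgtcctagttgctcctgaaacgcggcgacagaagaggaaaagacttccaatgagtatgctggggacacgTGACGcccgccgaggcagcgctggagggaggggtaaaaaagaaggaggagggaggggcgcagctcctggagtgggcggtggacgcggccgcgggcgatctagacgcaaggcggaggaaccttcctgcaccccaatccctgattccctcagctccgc
Pde2a: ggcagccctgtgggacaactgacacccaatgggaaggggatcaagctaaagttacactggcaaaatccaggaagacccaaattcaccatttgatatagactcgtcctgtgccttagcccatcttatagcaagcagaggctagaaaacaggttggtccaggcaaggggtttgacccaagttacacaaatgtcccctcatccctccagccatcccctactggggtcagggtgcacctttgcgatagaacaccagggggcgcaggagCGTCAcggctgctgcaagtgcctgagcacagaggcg

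Of the 9 genes, 7 had at least 1 window in the RefSeq table, 14 windows in all. The full element TGACGTCA, searched on both strands, was in 0 of the 14 windows and in 588 of the 32851 windows of all genes (1.79%). Its core TGACG, which lies within the full element, was in 2 of the 14 windows and in 20.8% of all windows. Those 2 are the Gucy1a2 window, where it starts 106 bases before the start site, and the Pde2a window shown, where it starts 14 bases after it. The other Pde2a windows, which are not shown, held no match. The GC content was 43.7% in the Akap6 window, 75.0% in the Adcy2 window, 60.0% in the Gucy1a2 window and 54.7% in the Pde2a window shown. The median of all windows was 52.7%. These matches describe letters in the windows and do not show binding.

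Several features of the arrays bear on every value below. Fmr1 itself read 8.01 to 8.38 on the arrays labelled Fmr1 KO and 7.60 to 8.28 on controls, so its probe set did not separate the groups, and the disrupted part of the gene is not named in the labels. The 19 measured astrocyte markers averaged 9.91 to 10.87 on the arrays labelled Fmr1 KO and 9.73 to 10.43 on controls. The 19 measured microglia markers, genes of the brain's resident immune cells, averaged 9.17 to 10.60 on KO-labelled arrays and 9.90 to 10.92 on controls. All 19 microglia markers had a lower mean on the KO-labelled arrays, and all 19 astrocyte markers a higher one. The lowest microglia means belonged to KO-labelled array 2 at 9.17, KO-labelled array 1 at 9.75 and control array 1 at 9.90. These 3 arrays lay apart from the other 7 on the leading principal component (48.5% of the variance). Xist read 10.60 and 10.98 on control arrays 2 and 3 and 4.98 to 5.23 on the other 8 arrays. Uty and Kdm5d, carried by the Y chromosome, showed the reverse. Uty read 4.82 and 4.77 on control arrays 2 and 3, against 7.64 to 8.30 elsewhere. Kdm5d read 4.86 and 4.83 there, against 7.05 to 7.76 elsewhere. By these genes, control arrays 2 and 3 read as female and every KO-labelled array as male. Sex was thus unbalanced between the groups, and its part in the differences was not tested beyond fits without those controls.

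The marker of each cell type that was brightest on controls is given here, with the count over its list. Glul, of astrocytes, averaged 12.20 on KO-labelled arrays and 12.10 on controls. Csf1r, of microglia, averaged 11.95 on KO-labelled arrays and 12.42 on controls, and Ttr, of the choroid plexus, 13.30 on KO-labelled arrays and 13.60 on controls, so the material did not read as astrocytes alone. All 7 measured choroid plexus markers had a lower mean on the KO-labelled arrays. So did 9 of the 10 endothelial markers, among them Pecam1 at 6.97 on KO-labelled arrays and 7.36 on controls, while Cdh5, the brightest over all arrays, averaged 7.17 on KO-labelled arrays and 7.31 on controls. The other lists were mixed. Of 10 mural markers 7 were higher and 3 lower, with a median difference of 0.08, although Pdgfrb averaged 9.44 on KO-labelled arrays and 8.86 on controls. Of 11 oligodendrocyte lineage markers 6 were higher and 5 lower, with a median of 0.01, although Olig2 averaged 7.99 on KO-labelled arrays and 7.53 on controls. Of 14 neuron markers 6 were higher and 8 lower, with a median of -0.02, and Camk2a averaged 7.11 on KO-labelled arrays and 7.14 on controls. Fewer cells of a type and less RNA per cell cannot be told apart in such bulk samples, and the part of these marker differences in the results below was not tested beyond the values given.

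Across all 17712 genes tested, 0 were called higher (0%) and 0 lower (0%) at a Benjamini-Hochberg adjusted p under 0.05 in limma, where adjusted p-values started at 0.654. Without adjustment, at p under 0.05, the counts were 709 higher (4%) and 625 lower (3.53%). Of the 9 genes described, 5 had a higher and 4 a lower mean on the arrays labelled Fmr1 KO. The groups did not overlap for 1 of them on the higher side, Akap6, and for 1 on the lower side, Cnbd2, and among all genes tested this held for 0.429% on the higher and 0.536% on the lower side. These counts follow from how the genes were picked and carry no weight as evidence.

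**Figure D1:**
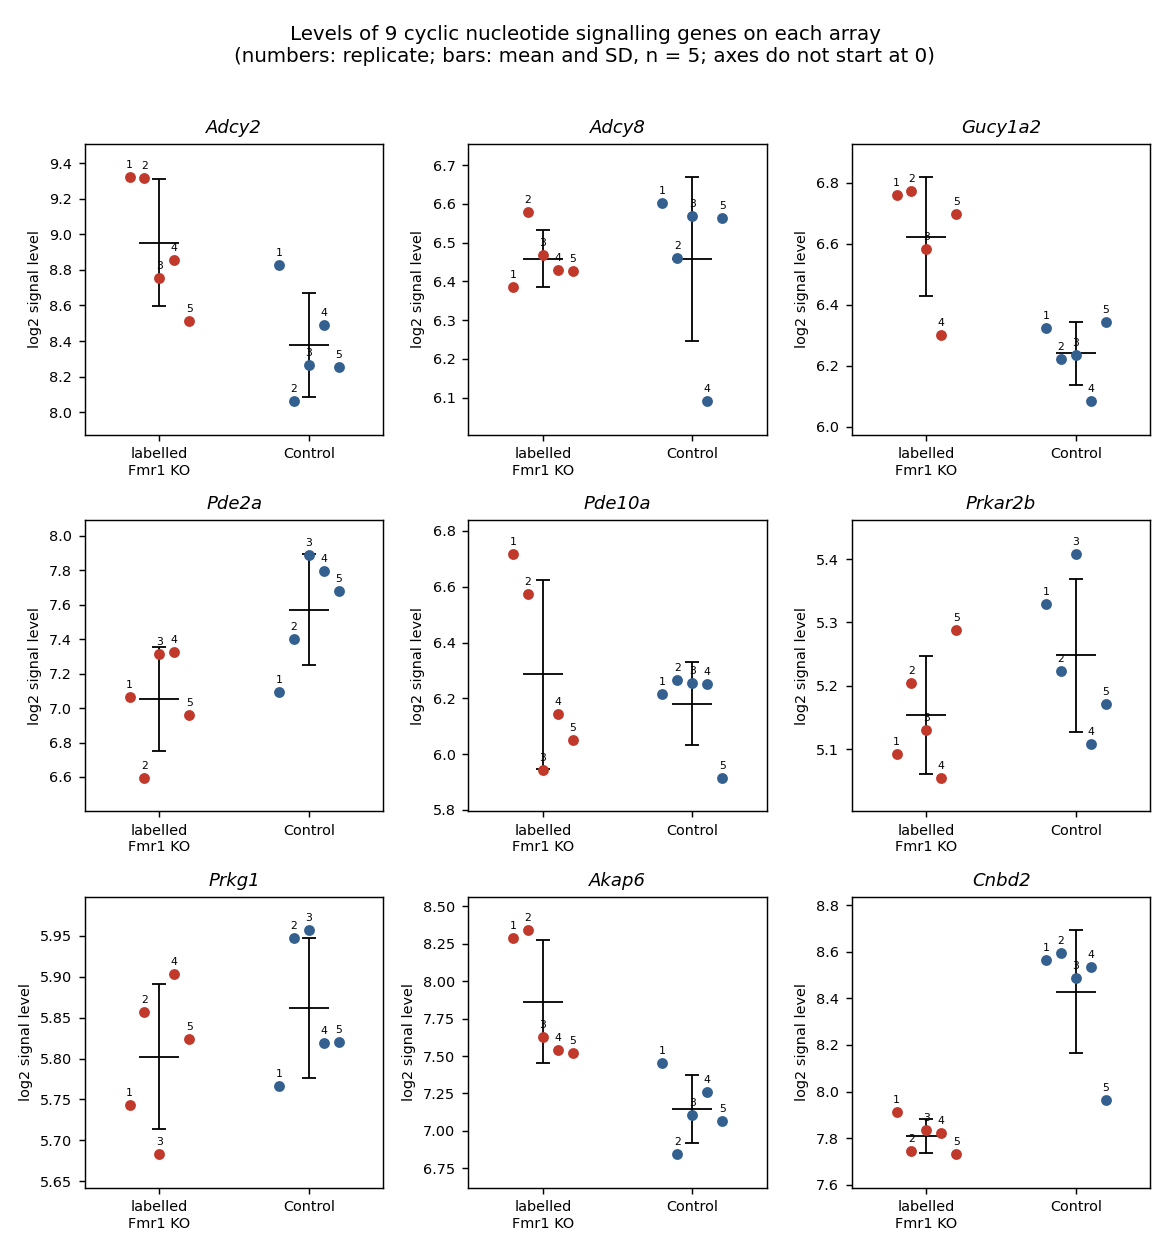
Log2 signal level (vertical axis, not starting at 0) of each of the 9 genes on each array, arrays labelled Fmr1 KO at left in red and controls at right in blue, with replicate numbers, and the mean and SD of 5 arrays as bars. Akap6 and Cnbd2 show no overlap between the groups, with KO-labelled arrays at 7.52 or more and controls at 7.45 or less for Akap6, and KO-labelled arrays at 7.91 or less and controls at 7.96 or more for Cnbd2.

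Adcy2 encodes an adenylyl cyclase that G protein beta-gamma subunits stimulate. It read 9.32, 9.32, 8.75, 8.85 and 8.51 on KO-labelled arrays 1 to 5, against 8.82, 8.06, 8.27, 8.49 and 8.25 on control arrays 1 to 5. All 5 KO-labelled arrays lay above the control mean. The ranges overlapped through control array 1, which read above KO-labelled arrays 3 and 5. The group means were 8.95 ± 0.36 on KO-labelled arrays and 8.38 ± 0.29 on controls (SD, n = 5 each), a difference of 0.57 ± 0.18 (SE), or 1.49-fold.

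The other cyclase of the pair, Adcy8, is stimulated by calcium and calmodulin. It read 6.39, 6.58, 6.47, 6.43 and 6.43 on KO-labelled arrays 1 to 5, against 6.60, 6.46, 6.57, 6.09 and 6.56 on control arrays 1 to 5. The KO-labelled arrays lay within the range of the controls. The means were 6.46 ± 0.07 on KO-labelled arrays and 6.46 ± 0.21 on controls (SD, n = 5 each), with a difference of 0.00 ± 0.10 (SE). Control array 4 was the lowest of all 10.

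Gucy1a2 encodes an alpha subunit of soluble guanylyl cyclase, the enzyme that nitric oxide activates. It read 6.76, 6.77, 6.58, 6.30 and 6.70 on KO-labelled arrays 1 to 5, against 6.32, 6.22, 6.23, 6.08 and 6.34 on control arrays 1 to 5. The 4 highest of these KO-labelled levels lay above every control, and KO-labelled array 4 lay below control arrays 1 and 5. The means were 6.62 ± 0.20 on KO-labelled arrays and 6.24 ± 0.10 on controls (SD, n = 5 each), a difference of 0.38 ± 0.10 (SE), or 1.30-fold. The beta subunit with which it forms an active enzyme, Gucy1b1, averaged 6.91 ± 0.33 on the arrays labelled Fmr1 KO and 6.60 ± 0.30 on controls (SD, n = 5 each), and its difference of 0.31 ± 0.17 (SE) did not pass the test (limma adjusted p = 0.673).

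Pde2a encodes a phosphodiesterase that hydrolyses both messengers and is stimulated by cyclic GMP. It read 7.06, 6.60, 7.32, 7.32 and 6.96 on KO-labelled arrays 1 to 5, against 7.09, 7.40, 7.89, 7.79 and 7.68 on control arrays 1 to 5. Every KO-labelled array lay below the control mean, and the overlap came from control array 1, which read below KO-labelled arrays 3 and 4. The means were 7.05 ± 0.30 on KO-labelled arrays and 7.57 ± 0.32 on controls (SD, n = 5 each), a difference of -0.52 ± 0.17 (SE), or 0.698-fold.

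Pde10a encodes another phosphodiesterase of dual substrate, known for its abundance in striatal neurons. It read 6.72, 6.57, 5.94, 6.14 and 6.05 on KO-labelled arrays 1 to 5, against 6.22, 6.27, 6.26, 6.25 and 5.92 on control arrays 1 to 5. The KO-labelled arrays were split, with arrays 1 and 2 above every control and arrays 3 to 5 below 4 of the 5 controls. The means of 6.29 ± 0.34 on KO-labelled arrays and 6.18 ± 0.15 on controls (SD, n = 5 each) differed by 0.11 ± 0.15 (SE), less than the SD of either group. Without KO-labelled array 1 the difference was -0.003, and it ran from there to 0.19 when other single arrays were left out.

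Among the receivers of the messengers, Prkar2b encodes a regulatory subunit of PKA that keeps the kinase off until cyclic AMP binds. Its probe set, averaging less than 5.32 (the 25th percentile over the whole array), was too dim for the test of all genes. It read 5.05 to 5.29 with a median of 5.13 on the arrays labelled Fmr1 KO, against 5.11 to 5.41 with a median of 5.22 on controls. The groups overlapped, and the difference was -0.09 ± 0.07 (SE). It was -0.05 without control array 3, the highest, and also -0.05 without both Xist-high controls.

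Prkg1 encodes cyclic GMP-dependent protein kinase I, which acts in smooth muscle and neurons. It read 5.68 to 5.90 with a median of 5.82 on the arrays labelled Fmr1 KO, against 5.77 to 5.96 with a median of 5.82 on controls. These levels too were close to the dim end of the arrays. The difference was -0.06 ± 0.08 (SE), with 4 of 5 KO-labelled arrays below the control mean, and without the Xist-high control arrays 2 and 3, the highest controls, it was 0.00 ± 0.08. When single arrays were left out it ran from -0.08 to -0.03. It reached -0.03 when KO-labelled array 3 was dropped and -0.04 when control array 2 or 3 was.

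Akap6 encodes an anchoring protein that holds PKA, together with a phosphodiesterase, at the nuclear envelope of muscle cells and neurons. It read 8.29, 8.34, 7.63, 7.54 and 7.52 on KO-labelled arrays 1 to 5, against 7.45, 6.84, 7.11, 7.26 and 7.07 on control arrays 1 to 5. Every KO-labelled array lay above every control, by 0.07 between the nearest arrays. The means were 7.86 ± 0.41 on KO-labelled arrays and 7.15 ± 0.23 on controls (SD, n = 5 each), a difference of 0.72 ± 0.18 (SE), or 1.65-fold. KO-labelled arrays 1 and 2 stood above the other 3 of their group, which read within 0.11 of each other.

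Cnbd2 encodes a protein with a cyclic nucleotide-binding domain, known in mice for a role in sperm formation. Its brightest probe set read 7.91, 7.74, 7.84, 7.82 and 7.73 on KO-labelled arrays 1 to 5, against 8.56, 8.60, 8.49, 8.53 and 7.96 on control arrays 1 to 5. Every KO-labelled array lay below every control, but control array 5 came within 0.05 of KO-labelled array 1, while the other controls read 8.49 or more. The means were 7.81 ± 0.07 on KO-labelled arrays and 8.43 ± 0.26 on controls (SD, n = 5 each), a difference of -0.62 ± 0.12 (SE), or 0.651-fold. It was -0.74 without control array 5.

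The difference of Cnbd2 belonged to that probe set. The arrays carry 3 probe sets annotated with Cnbd2 alone. The second in brightness averaged 6.48 ± 0.44 on the arrays labelled Fmr1 KO and 6.21 ± 0.21 on controls (SD, n = 5 each), a difference of 0.27 ± 0.20 (SE) in the opposite direction, with the highest levels of 6.57 and 7.22 on KO-labelled arrays 1 and 2. The third averaged 5.96 ± 0.11 on KO-labelled arrays and 6.06 ± 0.16 on controls (SD, n = 5 each), a difference of -0.10 ± 0.09 (SE). With the 3 averaged, the difference was -0.15 ± 0.09 (SE). A further probe set, shared with Scand1, which overlaps Cnbd2 in the RefSeq annotation, differed by -0.05 ± 0.16 (SE). Which transcripts of Cnbd2 each probe set reads is not given in the sources used here.

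**Figure D2:**
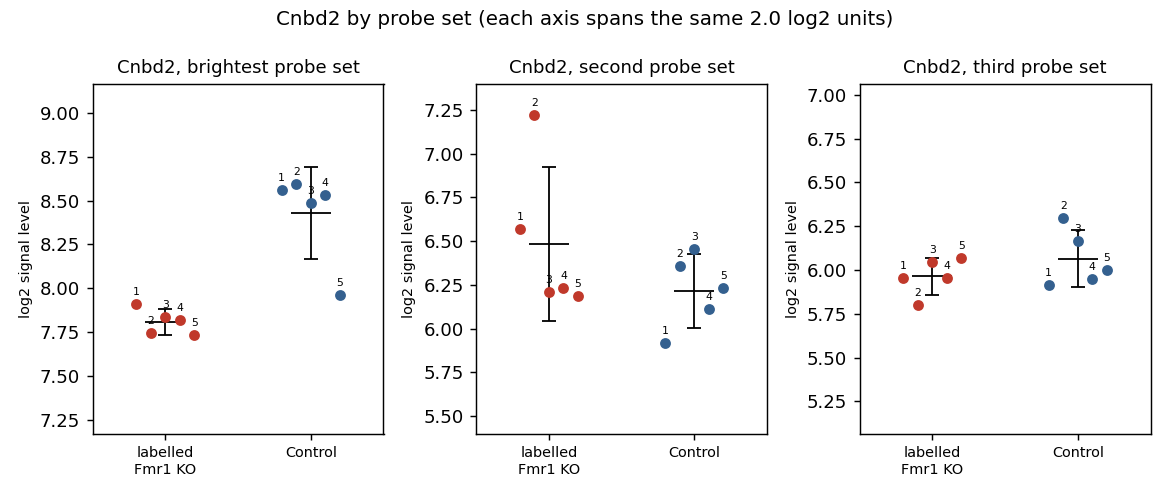
Log2 signal level (vertical axis, 2.0 units in each panel) of the 3 probe sets annotated with Cnbd2 alone, by array, with arrays labelled Fmr1 KO left of controls, replicate numbers, and the mean and SD of 5 arrays. The brightest separates the groups, with means of 7.81 on KO-labelled arrays and 8.43 on controls, while the second is higher by 0.27 and the third lower by 0.10 on the arrays labelled Fmr1 KO.

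The genes differed in how they followed the microglia signal of the arrays. Ordered by their microglia marker mean from low to high, the arrays were KO-labelled 2 and 1, control 1, KO-labelled 5, 3 and 4, and control 2, 4, 5 and 3. In that order Pde2a read 6.60, 7.06, 7.09, 6.96, 7.32, 7.32, 7.40, 7.79, 7.68 and 7.89, close to a steady climb. Control array 1 lay beside the KO-labelled arrays of like microglia signal. Akap6 ran the other way, from 8.34 and 8.29 on the first 2 arrays to 6.84 to 7.26 on the last 4, and Adcy2 from 9.32 on both of the first arrays to 8.06 to 8.49 on the last 4. Cnbd2, by its brightest probe set, showed no such order: control array 1 read 8.56 and control arrays 2 to 4 read 8.49 to 8.60, while control array 5 read 7.96. Its second probe set was highest on KO-labelled arrays 2 and 1, at 7.22 and 6.57. The third read 5.80 and 5.95 there, against 5.91 to 6.29 on controls. Control array 1 was the only control within the range of microglia means of the KO-labelled arrays. With 1 such array, how Cnbd2 relates to the signal cannot be settled.

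**Figure D3:**
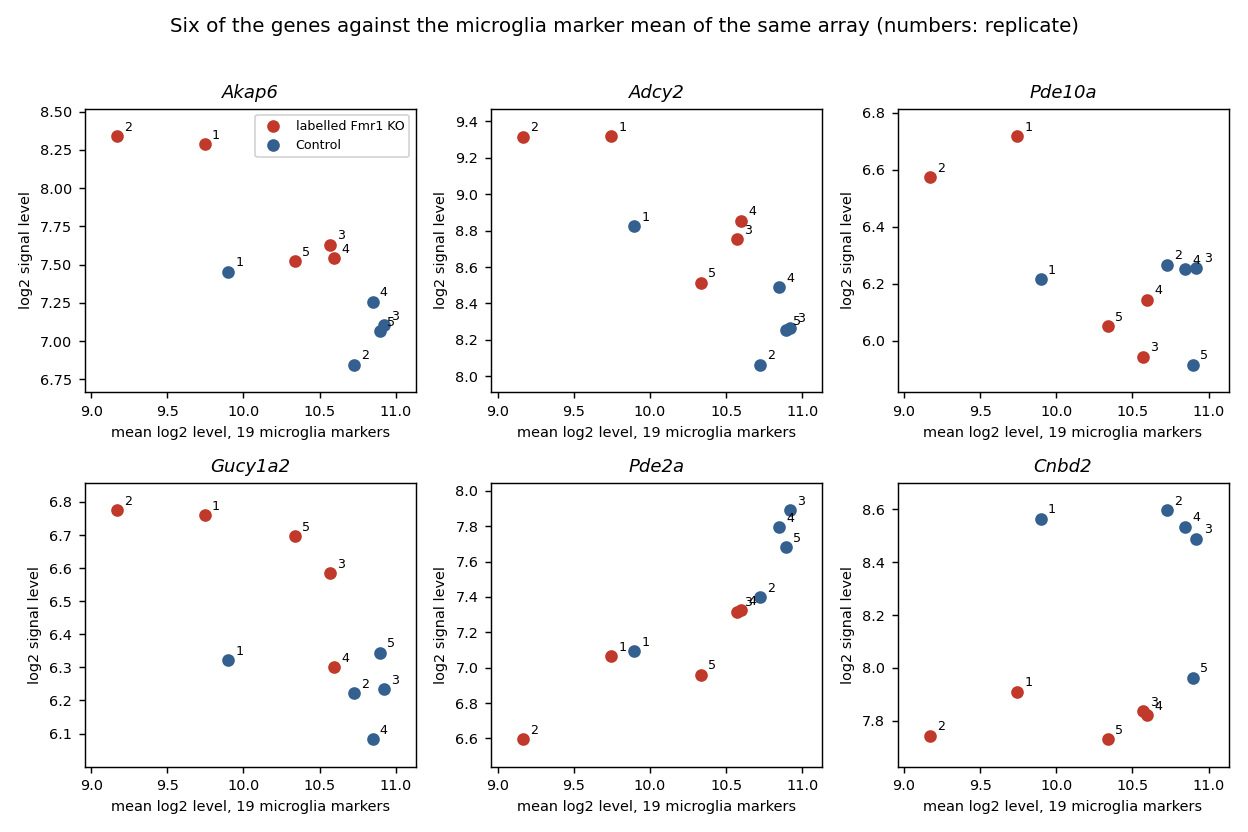
Log2 level of 6 of the genes (vertical axes) against the mean log2 level of the 19 measured microglia markers on the same array (horizontal axes), with arrays labelled Fmr1 KO in red, controls in blue and replicate numbers. Pde2a climbs from 6.60 at the lowest microglia mean to 7.89 at the highest, and Akap6 and Adcy2 run the other way. Cnbd2, by its brightest probe set, reads 8.56 on control array 1. That array is the only control within the range of microglia means of the KO-labelled arrays.

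With the microglia marker mean entered in the fit, the differences were smaller for Pde2a, at -0.22 ± 0.12, Adcy2, at 0.29 ± 0.14, and Akap6, at 0.41 ± 0.13 (SE). The difference of Gucy1a2 was also smaller, at 0.28 ± 0.11 beside 0.38 without the covariate. That of Cnbd2 was -0.66 ± 0.13 beside -0.62. Pde10a then differed by -0.09 ± 0.14. Without the 3 arrays of low microglia signal, 3 KO-labelled arrays remained against 4 controls. The differences were then 0.50 ± 0.12 for Akap6, 0.44 ± 0.13 for Adcy2 and 0.31 ± 0.12 for Gucy1a2. They were -0.49 ± 0.14 for Pde2a, -0.60 ± 0.15 for Cnbd2 and -0.13 ± 0.12 for Pde10a. In that comparison the microglia marker mean was still lower on each of the 3 KO-labelled arrays, at 10.34 to 10.60, than on the 4 controls, at 10.73 to 10.92. Without the Xist-high control arrays 2 and 3, the differences were 0.60 ± 0.22 for Akap6, 0.43 ± 0.21 for Adcy2 and 0.37 ± 0.13 for Gucy1a2. They were -0.47 ± 0.20 for Pde2a and -0.55 ± 0.14 for Cnbd2.

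**Figure D4:**
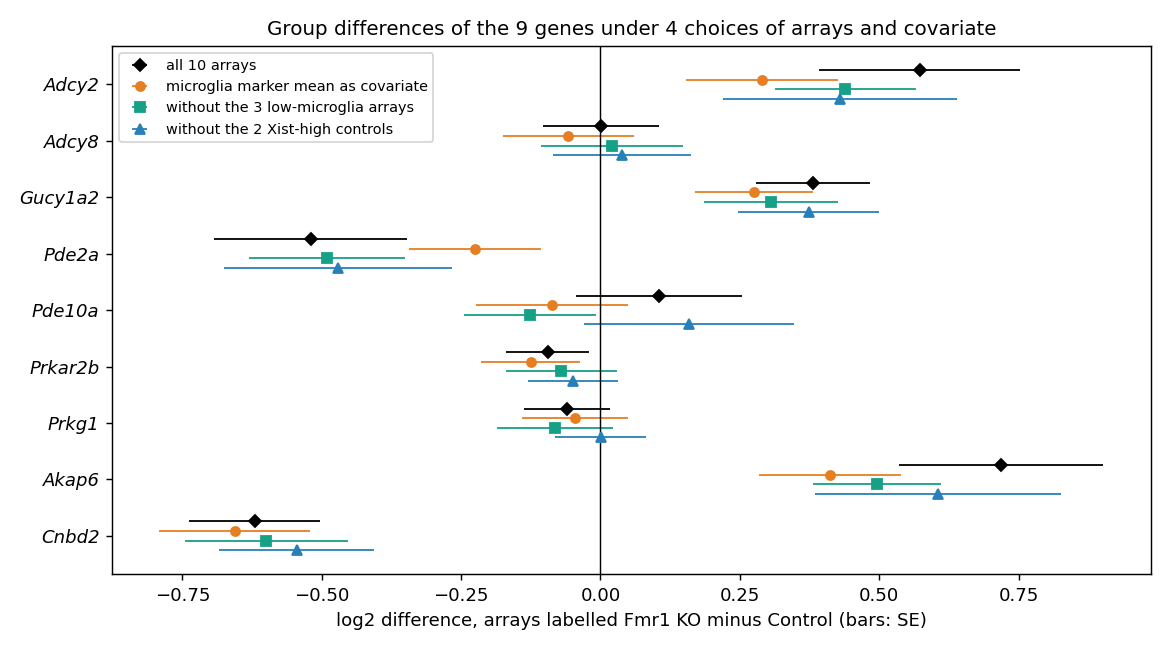
Difference in log2 level, arrays labelled Fmr1 KO minus control (horizontal axis), with its SE, for each gene under 4 choices of arrays and covariate. Akap6, Adcy2 and Gucy1a2 stay above 0 and Pde2a, Cnbd2 and Prkar2b below 0 in all 4. Pde2a is at -0.52 on all arrays and -0.22 with the covariate. Pde10a, Adcy8 and Prkg1, whose differences are small, change sign.

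Among themselves, 3 genes varied by more than 1 log2 unit over the arrays, Akap6, Pde2a and Adcy2, and of these Akap6 and Adcy2 had like profiles while Pde2a ran the opposite way. After each gene's own mean was subtracted, Akap6 and Adcy2 differed by 0.10 on average over the 10 arrays, against 0.65 between Akap6 and Pde2a, while the mean absolute deviation was 0.36 for Akap6 and 0.35 for Adcy2. Both had their top levels on KO-labelled arrays 1 and 2 and their lowest on control array 2. Gucy1a2, with a range of 0.69, also peaked on those KO-labelled arrays but read 6.32 on control array 1, within the other controls. Adcy8, Prkg1 and Prkar2b varied least, by 0.51, 0.27 and 0.35 between their extreme arrays, and Prkg1 and Prkar2b differed by 0.09.

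Among all other genes tested, the profiles nearest to Adcy2, by the same mean absolute difference over 10 arrays, were Neo1, Pcsk6 and Ahcyl1, at 0.05 each. Nat8f4, Fgd6 and Trps1 were nearest to Akap6, at 0.08 each. Cmbl, Eml5 and Dcbld2 were nearest to Gucy1a2, at 0.07 to 0.09, where Gucy1a2 itself deviated by 0.22. Ccnd1, Mob1a and H2-DMa were nearest to Pde2a, at 0.08 to 0.09. The nearest to Cnbd2 were Rps12 and Rpl35, which encode ribosomal proteins, at 0.10 and 0.13, and Ndufa11, which encodes a subunit of respiratory complex I, at 0.14. Rmdn1, Washc3 and Tmem62 were nearest to Pde10a, at 0.07 to 0.08. Beside these distances, the genes' own mean absolute deviations were 0.18 for Pde10a, 0.31 for Pde2a and 0.34 for Cnbd2. For the 3 genes of small range the nearest were Abca17, Gpr152 and Col4a1 to Adcy8, at 0.05 to 0.06, Prr23a1, Tmco2 and Ccdc120 to Prkg1, at 0.03 to 0.04, and Pla2g4f, Fabp3 and Speer4f2 to Prkar2b, at 0.03 to 0.04. Distances this small are set in part by how little those genes vary, with mean absolute deviations of 0.10 for Adcy8, 0.07 for Prkg1 and 0.09 for Prkar2b.

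Another 118 genes of the pathway were listed by role, of which 99 were tested, 12 were too dim and 7 had no probe set of their own in the annotation. None passed the threshold in either direction (limma adjusted p = 0.654 or higher for each). Their means were higher for 52 and lower for 47, with a median difference of 0.01, where all genes tested had a median of -0.01 and 46.8% with a higher mean. Without adjustment, 8 were higher (8.08%, beside 4% of all genes) and 1 lower (1.01%, beside 3.53% of all genes) at p under 0.05. The count of 9 moved with the arrays, as did that of all genes, 1334. It was 2 without KO-labelled array 1 (804 of all genes) and 2 without KO-labelled array 2 (794 of all genes). It was 5 without control array 2 (995) and also 5 when control array 3 was left out (899), and 19 without control array 1 (2425). Leaving out any other single array gave 7 to 13 (964 to 1702 of all genes), and leaving out both Xist-high controls gave 0 (718).

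The other adenylyl cyclases were 2 higher and 4 lower in mean, with 0 of 6 past the threshold. Adcy7, a cyclase of immune cells, read 7.97 ± 0.59 on the arrays labelled Fmr1 KO and 8.38 ± 0.39 on controls (SD, n = 5 each). Adcy4 differed by -0.17 ± 0.08 and Adcy5, the main striatal form, by -0.21 ± 0.10 (SE). The group means of Adcy4 and Adcy5 were 5.92 to 6.18, near or below the array medians of 6.11 to 6.24. The other guanylyl cyclases and natriuretic peptide receptors were 7 higher and 4 lower, with 0 of 11 past the threshold. Npr2, the receptor of C-type natriuretic peptide, differed by 0.40 ± 0.18, with control array 1 at 7.90 and the other controls at 7.18 to 7.24. Gucy2g, a dim signal at 5.92 on KO-labelled arrays and 5.78 on controls, differed by 0.14 ± 0.07.

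Phosphodiesterases had the widest spread, with 10 of 20 higher and 10 lower in mean and 0 past the threshold. Pde4b, specific for cyclic AMP, read 7.20 ± 0.18 on the arrays labelled Fmr1 KO and 6.90 ± 0.12 on controls (SD, n = 5 each), and its difference of 0.30 ± 0.10 (SE) had an adjusted p of 0.654 in limma. Pde8b, also specific for cyclic AMP, differed by 0.58 ± 0.22, with KO-labelled arrays 1 and 2 at 9.39 and 9.42 and the other 3 at 8.45 to 8.55. Pde9a, specific for cyclic GMP, differed by 0.34 ± 0.18. The extremes of the list, picked after their values were seen, were Pde7b at 0.62 ± 0.37 and Pde3b at -0.66 ± 0.38 (SE).

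Of the kinase subunits and inhibitors, 3 of 8 were higher and 5 lower, with 0 past the threshold. The main catalytic subunit of PKA, Prkaca, averaged 8.13 ± 0.22 on KO-labelled arrays and 8.09 ± 0.08 on controls (SD, n = 5 each), a difference of 0.04 ± 0.11 (SE; limma adjusted p = 0.936). Prkx, a related kinase, differed by -0.28 ± 0.13, Prkar1b by -0.13 ± 0.10 and Prkar2a, the sister subunit of Prkar2b, by 0.16 ± 0.14. Of the other anchoring proteins, 13 of 20 were higher and 7 lower, again with 0 past the threshold, among them Akap11 at 0.25 ± 0.11, Map2, a microtubule protein that binds PKA, at 0.53 ± 0.24, and the sperm protein Akap4, a dim signal, at -0.16 ± 0.08.

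Other proteins that bind or export cyclic nucleotides were 6 higher and 7 lower, with 0 of 13 past the threshold. Abcc5, which can export cyclic GMP, differed by 0.21 ± 0.11, the channel subunit Cngb1 by -0.18 ± 0.11, and Rapgef3, the exchange factor Epac1 that cyclic AMP opens, by 0.36 ± 0.23, with KO-labelled arrays 1 and 2 at 9.43 and 9.40 and control array 1 at 9.21. Upstream, 3 of 7 G protein alpha subunits were higher and 4 lower. Gnao1 read 12.09 ± 0.29 on the arrays labelled Fmr1 KO and 11.66 ± 0.31 on controls (SD, n = 5 each), Gnaz differed by 0.25 ± 0.10 and Gnai1 by -0.12 ± 0.08. Gnas, which encodes the subunit that stimulates adenylyl cyclases, differed by -0.08 ± 0.08 (limma adjusted p = 0.797). Its probe set averaged 6.22 on KO-labelled arrays and 6.30 on controls, near the array medians of 6.11 to 6.24. Whether it reads the main transcript was not tested.

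Downstream, 7 of 11 CREB factors, coactivators and kinase substrates were higher and 4 lower. Creb1 averaged 8.24 ± 0.20 on KO-labelled arrays and 8.51 ± 0.23 on controls (SD, n = 5 each), a difference of -0.27 ± 0.13 (SE; limma adjusted p = 0.655). The coactivator Crtc3 differed by 0.30 ± 0.12, and Vasp, an actin regulator that both kinases phosphorylate, by -0.36 ± 0.13 (limma adjusted p = 0.654 for both). The nitric oxide synthases Nos1, Nos2 and Nos3 differed by 0.01 ± 0.10, -0.08 ± 0.12 and -0.18 ± 0.09, and none passed the threshold. Their signals were dim. Nos1 and Nos2 had group means of 5.72 to 6.02, below the array medians of 6.11 to 6.24, and Nos3 means of 6.15 to 6.33.

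**Figure D5:**
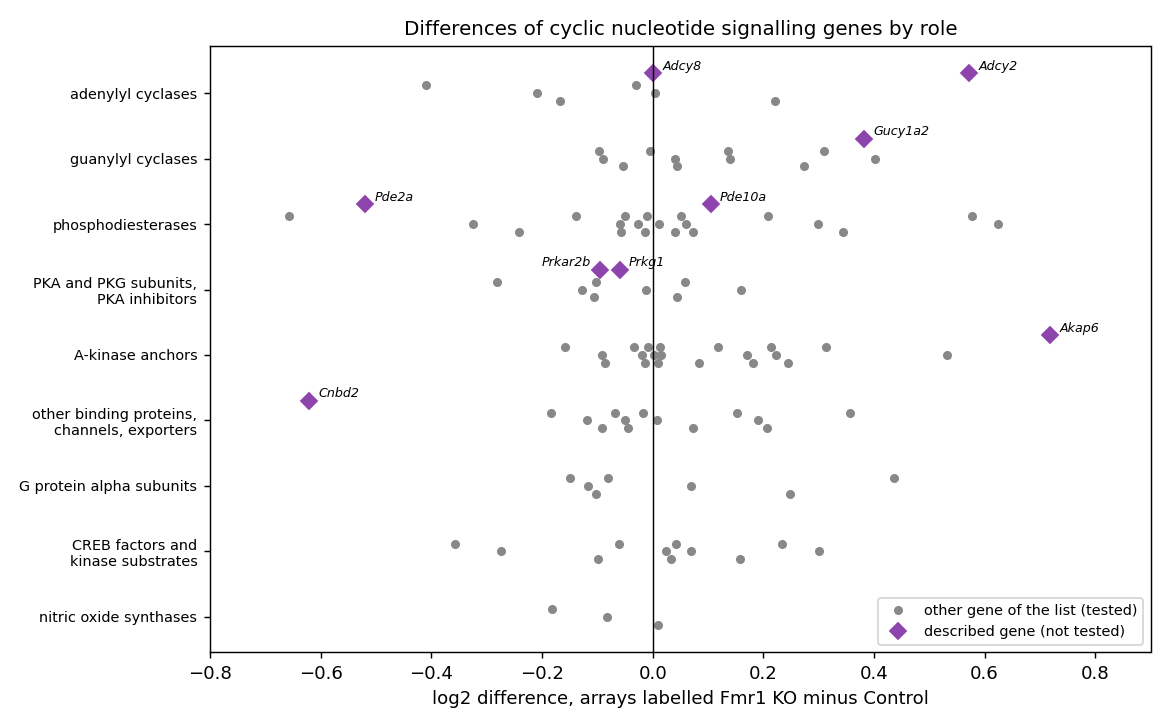
Difference in log2 level, arrays labelled Fmr1 KO minus control (horizontal axis), for the 9 genes described (purple diamonds, not tested) and the 99 other pathway genes tested (grey points), by role. The grey points lie between -0.66 and 0.62, none past the threshold, and Akap6 at 0.72 and Cnbd2 at -0.62 stand at or near the edges. The 9 genes were chosen with these differences known, so their places carry no weight as evidence. Cnbd2 is drawn by its brightest probe set, and with the mean of its 3 probe sets the difference was -0.15.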

How the data were processed

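The authors deposited log2 signal levels of 33793 probe sets on each of 10 Affymetrix arrays. That scale was read from the values, with array medians of 6.11 to 6.24. Per the labels' protocols, cDNA was made with an Affymetrix whole-transcript kit and carried a biotin label. The design text of the series names GeneSpring 13.1.1 for the comparison. No background correction, normalization method or genome build is given in the sources used here. The arrays' number limits the precision.

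Probe sets with 1 gene symbol were kept (23521, against 1814 with several and 8458 with none listed), then the brightest per gene, then those with a mean of 5.32 or more, the 25th percentile over the array. The 17712 genes left were fitted in limma 3.58.1 (lmFit, eBayes) under R 4.3.3, and two-sided p-values were adjusted by Benjamini-Hochberg, with a threshold of 0.05. The fit was run on simulated data with noise independent between genes. The real arrays share variation across genes, so that run checks the code and not the error rates here. Motifs were searched with Python 3.11.15.

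The 9 genes and all lists were chosen with earlier results of these data known. Named beside the 9 are Fmr1, Gnas, Prkaca, Creb1 and Gucy1b1, in each pathway list up to 3 genes with the smallest unadjusted p, for each of the 9 genes the 3 nearest profiles (predicted, small RNA and chemosensory receptor genes left out), and the marker of each cell type with the highest control mean. Alternatives were 2 further normalizations, 2 other filters, averaging all probe sets of a gene, array weights, a trended and robust eBayes, the replicate block, other thresholds, leaving out each array, both Xist-high controls or the 3 low-microglia arrays, and the microglia marker mean as a covariate. RefSeq places Cstf2t within reach of Prkg1 and Scand1 of Cnbd2. Whether probes lie in shared sequence was not examined here.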

Additional observations from a re-analysis of the deposited data

Results flagged for a closer look

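In 10 of 92 groups of 5 arrays, taken over the genes named and the marker lists, the highest or lowest array lay apart from the other 4 by more than 0.71 of the group's range. Chance puts about 1 in 20 groups there, or 4.6, and the groups share arrays.

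Among the 9 genes, Cnbd2 read 7.96 on control array 5, beside 8.49 to 8.60 for the other controls. Pde10a read 5.92 on the same array, beside 6.22 to 6.27. Adcy8 read 6.09 on control array 4, beside 6.46 to 6.60. Control array 1 stood apart in the microglia marker mean, at 9.90 beside 10.73 to 10.92, and in Npr2, at 7.90 beside 7.18 to 7.24, and Pde9a, at 7.55 beside 7.03 to 7.14. Control array 2 stood apart in Crtc3, at 8.06 beside 8.28 to 8.35, and in Gucy2g, at 5.88 beside 5.74 to 5.77. KO-labelled array 5 stood apart in Prkaca, at 7.74 beside 8.16 to 8.32, and in Gucy2g, at 6.08 beside 5.87 to 5.91.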

How the results depend on the processing

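Over 21 alternatives, Akap6, Adcy2 and Gucy1a2 kept a positive and Pde2a, Cnbd2 and Prkar2b a negative difference. Pde10a kept its sign in 18, Adcy8 in 16 and Prkg1 in 20. Of the 189 values, 188 moved by less than the SD between arrays, and the exception was Cnbd2 at -0.15 with the mean of its 3 probe sets. Many could not move. The other filters, the trended and robust eBayes, the replicate block and, for genes with 1 probe set, averaging left each difference unchanged by construction. The SD is also a wide yardstick. With the microglia covariate, Pde2a went from -0.52 to -0.22, Adcy2 from 0.57 to 0.29 and Akap6 from 0.72 to 0.41, all within it. Leaving out single arrays gave 0.60 to 0.80 for Akap6, 0.48 to 0.68 for Adcy2, 0.34 to 0.46 for Gucy1a2, -0.64 to -0.41 for Pde2a and -0.74 to -0.58 for Cnbd2. The count of all genes past the threshold was 0, and ran from 0 to 1 when single arrays were left out. Without control array 5 it was 1, and that gene was Cnbd2, whose contrast is described and not tested here. Cnbd2 was picked with this contrast known, and the array left out was its control nearest the KO-labelled arrays. That call therefore carries no weight as evidence. The count was also 1, Tlcd1, without the 3 low-microglia arrays, and 1334 at an unadjusted p under 0.05. The count of other pathway genes was 0 in every alternative but the unadjusted threshold, where it was 9; that unadjusted count was 15 with quantile normalization (1534 of all genes), 14 with the replicate block (2080) and 2 with microglia signal as a covariate (793), and the cause was not tested. Same-numbered arrays of the 2 groups correlated in their deviations by -0.02 to 0.53, not above 0.1 in every pair, so the numbers were not taken to pair them. With the replicate block, 0 genes and 0 pathway genes passed, and the differences of the 9 genes were the same by construction, with Akap6 at 0.72. Prkar2b and other probe sets near 5.32 are limited by signal over background.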
